A study of Mus musculus with 24 samples.

Results

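Promoter peaks of H3K9ac (acetylation of lysine 9 of histone H3) that were strong at day 10 of differentiation in both parental (WT) and G9a knockout (KO) mouse embryonic stem cells are described here. They were selected on the authors' own fold enrichment per peak: a peak of the WT day 10 list with a fold of at least 4 that overlaps, by 1 bp or more, a peak of the KO day 10 list with a fold of at least 4, and that lies within 1 kb of the start of a gene on chromosomes 1 to 19 (build mm9). 3511 peaks met the rule, of 35882 peaks in the WT list and 49731 in the KO list on those chromosomes, and 4409 of 22882 genes (19.3%) have their start within 1 kb of one. Both day 10 lists chose the members, so the day 10 folds are given as a description, with no test.

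The WT cells are the female line 16.7 Tsix +/TST, and the KO cells were made from it by deleting G9a, so both groups carry the Tsix TST allele. Cells were harvested undifferentiated (day 0) or at day 10, after LIF, the cytokine that holds them undifferentiated, had been withdrawn for 4 days in suspension and 6 more days on gelatin. H3K9ac was mapped by ChIP (chromatin immunoprecipitation) in 1 sample for each line and day, so no difference between peak lists has a replicate check, and the sequencing depth behind the peak lists is unknown. Total RNA was sequenced in 3 libraries for each line and day. The labels do not say whether these came from separate cultures or from 1 knockout clone. P-values thus measure the spread between these libraries, which may be technical. KO day 0 replicates 2 and 3 were the most alike, with a log2 correlation of 0.993, against 0.864 of each with replicate 1. Pairs within the other groups had 0.816 to 0.963. The fits count KO day 0 replicates 2 and 3 as separate libraries, and whether they are independent was not tested. In such mixed cultures fewer cells of a type and less RNA per cell cannot be told apart.

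H3K9ac is laid down at active promoters by acetyltransferases of the GCN5/PCAF family within the SAGA and ATAC complexes, is read by proteins with bromodomains and YEATS domains, and is removed by histone deacetylases. It neutralises the charge of a lysine that can otherwise be methylated, and G9a (gene Ehmt2), with its partner GLP (Ehmt1), is the main enzyme that places the repressive dimethyl mark on that same lysine in mammalian euchromatin. The mark is typically broadest and strongest over the CpG-rich starts of housekeeping genes.

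The RNA libraries held 2081129 to 30527844 recovered reads. The 3 deepest, WT day 0 replicate 3 and KO day 0 replicates 2 and 3, had 0.115% to 0.129% of their reads in the ribosomal RNA gene Rn45s, against 14.8% to 25.1% in the other 9, all 6 day 10 libraries among them. KO day 0 replicate 1 and WT day 10 replicate 3 stand apart in reads of olfactory and vomeronasal receptor genes, which these cells should not transcribe, with 1072 and 1093 CPM (counts of recovered reads scaled to a common total) against 31.1 to 376.6 elsewhere. The summed level of 12 stem cell markers was 4599 to 5759 CPM at day 0, and at day 10 it was 488.5 to 1240 in the WT libraries and 1697 to 2354 in those of KO. The summed level of 10 fibroblast markers was 101.8 to 1108 at day 0 and 173.3 to 1204.5 at day 10. The deleted gene, Ehmt2, had 1297, 1359 and 718.6 scaled reads (the authors' reads per gene, brought to a common total per library) in the WT day 10 libraries. The KO day 10 libraries held 499.8, 758.4 and 628.3. Both sets are values of the gene as a unit and do not show the deleted stretch itself.

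To show what DNA lies under these peaks, 8 promoters are printed, from 250 bases before to 50 bases after the gene start, 5′ to 3′ on the gene's strand, from RefSeq (build GRCm38.p6). Capitals mark every match, on either strand, to 9 short motifs searched: the GC box GGGCGG, the sequence known as the CCAAT box, the TATA box spelled TATAAA, a core of the ETS family written CCGGAAG, the NRF1 type GCATGCGC, the cAMP response element TGACGTCA, the palindrome CTCGCGAG, the YY1 type AAGATGGCG and the E box CACGTG. Matches may overlap each other. The first 4 belong to peaks among the 10 strongest in both lines: Eif2s2 (chr2:154892857-154893156, minus strand), Ccnl2 (chr4:155812239-155812538, plus), Hnrnpul1 (chr7:25754710-25755009, minus) and Rpl13 (chr8:123102100-123102399, plus).
Eif2s2: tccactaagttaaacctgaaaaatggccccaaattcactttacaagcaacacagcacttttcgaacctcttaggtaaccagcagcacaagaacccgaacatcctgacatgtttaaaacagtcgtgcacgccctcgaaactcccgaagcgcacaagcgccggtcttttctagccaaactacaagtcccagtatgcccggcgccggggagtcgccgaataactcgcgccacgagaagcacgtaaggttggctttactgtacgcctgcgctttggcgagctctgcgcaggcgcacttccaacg
Ccnl2: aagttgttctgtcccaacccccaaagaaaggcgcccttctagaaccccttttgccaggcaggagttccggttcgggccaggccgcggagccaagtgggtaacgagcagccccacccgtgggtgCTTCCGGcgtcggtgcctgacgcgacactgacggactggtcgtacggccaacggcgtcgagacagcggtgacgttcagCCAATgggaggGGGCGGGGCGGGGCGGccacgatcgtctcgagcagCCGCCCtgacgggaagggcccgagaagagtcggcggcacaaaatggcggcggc
Hnrnpul1: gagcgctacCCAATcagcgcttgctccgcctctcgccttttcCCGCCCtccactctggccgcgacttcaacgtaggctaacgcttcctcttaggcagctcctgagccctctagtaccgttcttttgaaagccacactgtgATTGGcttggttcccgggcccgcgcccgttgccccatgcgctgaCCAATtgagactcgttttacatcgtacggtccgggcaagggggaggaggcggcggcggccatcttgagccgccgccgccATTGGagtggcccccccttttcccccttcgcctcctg
Rpl13: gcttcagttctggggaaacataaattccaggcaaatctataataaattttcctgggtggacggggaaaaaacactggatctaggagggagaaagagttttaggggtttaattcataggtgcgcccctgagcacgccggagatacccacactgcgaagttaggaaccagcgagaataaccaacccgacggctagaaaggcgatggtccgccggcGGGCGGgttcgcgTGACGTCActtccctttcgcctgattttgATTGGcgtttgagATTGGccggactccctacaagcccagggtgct
The next 2 belong to peaks with no day 0 peak in either line, Krt8 (chr15:102004293-102004592, minus) and Inpp5f (chr7:128611115-128611414, plus), and the last 2 to peaks at opposite ends of the KO to WT ratio, Smchd1 (chr17:71475294-71475593, minus; higher fold in KO) and Nsfl1c (chr2:151493932-151494231, plus; higher fold in WT).
Krt8: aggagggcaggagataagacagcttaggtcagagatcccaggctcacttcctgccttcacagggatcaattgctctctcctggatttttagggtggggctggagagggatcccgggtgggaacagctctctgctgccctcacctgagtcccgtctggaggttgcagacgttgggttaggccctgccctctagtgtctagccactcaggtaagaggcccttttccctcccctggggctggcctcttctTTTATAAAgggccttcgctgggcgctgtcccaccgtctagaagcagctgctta
Inpp5f: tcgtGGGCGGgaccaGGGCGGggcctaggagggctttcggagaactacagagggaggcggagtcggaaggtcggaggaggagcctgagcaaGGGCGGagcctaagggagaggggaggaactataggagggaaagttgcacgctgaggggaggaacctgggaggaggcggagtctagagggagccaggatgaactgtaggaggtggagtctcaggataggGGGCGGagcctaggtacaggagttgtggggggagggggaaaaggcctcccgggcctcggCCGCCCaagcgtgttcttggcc
Smchd1: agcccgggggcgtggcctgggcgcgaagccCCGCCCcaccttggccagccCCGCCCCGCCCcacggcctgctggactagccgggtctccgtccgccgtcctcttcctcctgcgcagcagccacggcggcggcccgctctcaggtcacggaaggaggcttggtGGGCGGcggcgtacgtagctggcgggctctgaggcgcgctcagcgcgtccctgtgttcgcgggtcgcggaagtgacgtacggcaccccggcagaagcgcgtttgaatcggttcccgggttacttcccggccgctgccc
Nsfl1c: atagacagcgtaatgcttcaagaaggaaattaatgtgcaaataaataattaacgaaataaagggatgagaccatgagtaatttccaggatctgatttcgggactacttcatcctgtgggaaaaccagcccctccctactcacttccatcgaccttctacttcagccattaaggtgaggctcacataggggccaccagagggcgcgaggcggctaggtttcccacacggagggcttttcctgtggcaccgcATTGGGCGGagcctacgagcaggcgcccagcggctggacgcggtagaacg
The observed over expected CpG ratio was 1.17 for Eif2s2, 0.98 for Ccnl2 and Smchd1, 0.93 for Rpl13, 0.89 for Hnrnpul1, 0.78 for Nsfl1c and 0.59 for Inpp5f. The Krt8 promoter had the lowest ratio of the 8, 0.24, and TATAAA on both strands in overlapping letters that lie across its annotated start. Eif2s2, among the strongest peaks, has no match to any of the 9 motifs in this window, which says only that these letters are absent from it.

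Over the protein-coding genes off chromosome 18, 3352 of 3945 genes with such a peak (85.0%) matched a promoter sequence, giving 4137 promoters. Their median GC content was 62.3% and their median CpG ratio 0.85, with 86.0% of them over 0.6. Over all 19090 promoters matched the same 3 values were 57.3%, 0.61 and 50.6%. Over genes with weaker peaks in both lines they were 61.3%, 0.72 and 66.3%, and over genes with no listed day 10 peak 49.0%, 0.22 and 14.1%. GGGCGG was in 67.6% of the members' promoters against 48.6% of all promoters, CCGGAAG in 24.8% against 12.1% and GCATGCGC in 7.03% against 3.7%. AAGATGGCG was in 5.25% against 1.92%, CTCGCGAG in 3.99% against 1.27%, TGACGTCA in 4.54% against 2.38% and CACGTG in 11.1% against 8.11%. CCAAT was in 36.8% against 37.9%, and TATAAA, the box carried by Krt8, in 6.09% against 12.3%. Promoters with weaker peaks in both lines held GGGCGG in 66.1% and TATAAA in 6.85%, close to the members' shares, but CTCGCGAG in 0.62% and AAGATGGCG in 1.4%.

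The folds of the 3511 peaks ran from 4.001 to 14.66 in WT (median 5.21) and from 4.0 to 11.4 in KO (median 5.23), and most sat near the threshold, with 2000 (57.0%) under 5 in at least 1 line. The ratio of the KO to the WT fold had a median of 1.001 and ran from 0.51 to 1.93, and 3426 peaks (97.58%) were within 1.5 times of each other. The rule, which needs 4 in both lists, limits how far apart they can be. The strongest, by the lower of the 2 folds, was a 1026 bp peak at chromosome 8, 20019504 to 20020529, at the starts of the RIKEN genes 2610005L07Rik and 6820431F20Rik, with 14.7 in WT and 10.4 in KO. Next came the peak of Eif2s2, the beta subunit of the translation initiation factor eIF2 (chromosome 2, 154715935 to 154719146), with 9.38 and 9.85. The peak of Ccnl2, a cyclin linked to splicing (chromosome 4, 155185539 to 155188449), had 9.33 and 9.55. The peak of Hnrnpul1, an RNA-binding protein (chromosome 7, 26537078 to 26541137), had 9.06 and 11.2. The other 6 of the top 10 belong to 2700089E24Rik (9.35 and 11.4), Ppig (9.16 and 9.29), Vps37a (9.00 and 9.30), the pair Atp5f1 and Wdr77 (8.92 and 9.20), Rpl13 with Snord68 and Mir7079 (9.36 and 8.87), and Rprd1a (8.77 and 10.2).

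**Figure D1:**
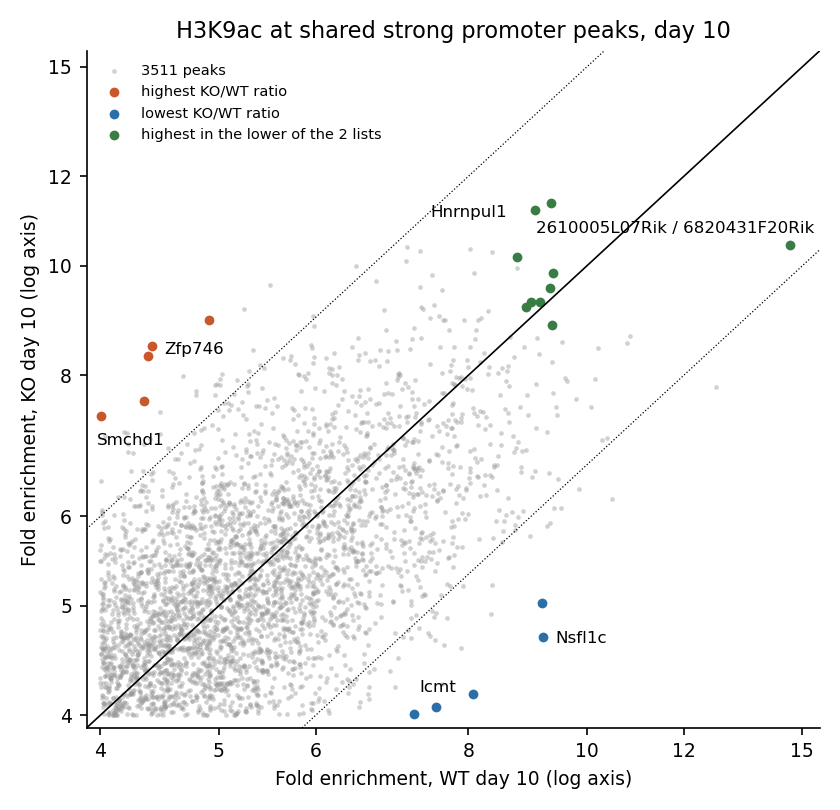
Fold enrichment of each of the 3511 peaks (grey points) in the WT day 10 list (x axis, log scale) and the KO day 10 list (y axis, log scale), with the solid line at equal folds and dotted lines at 1.5 times. Orange points are the 5 peaks with the highest KO to WT ratio, blue points the 5 with the lowest and green points the 10 with the highest value in the lower of the 2 lists; 39 peaks lie at or above the upper dotted line and 46 at or below the lower.

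39 peaks had a KO fold of at least 1.5 times the WT fold and 46 a WT fold of at least 1.5 times the KO fold; with 1 sample per line these are values of 2 samples and not calls. The highest ratio was at Zfp746, a zinc finger repressor (4.41 in WT, 8.49 in KO), followed by Pnrc1 (4.37 and 8.32) and Smchd1, a chromatin protein needed for X inactivation (4.00 and 7.37). Mak16, a ribosome assembly factor (4.91 and 8.96), and Nek2, a centrosome kinase (4.34 and 7.60), complete the top 5. The lowest ratio was at Nsfl1c, a cofactor of the p97 ATPase (9.20 and 4.69), followed by Golga7 (8.06 and 4.18) and Icmt, which methylates prenylated proteins (7.53 and 4.07). Ncln (7.22 and 4.01) was also among the lowest. At day 0 the order was another for some of them, as Smchd1 was at 3.60 in WT and 2.57 in KO, and Nsfl1c at 4.81 and 4.85. Across the 3305 peaks listed in both lines at day 0, the KO to WT ratio at day 10 and at day 0 had a Spearman correlation of -0.01. Peaks just inside the threshold were Bet1 (4.276 in WT, 4.00014 in KO), Tbpl1 (4.00062 and 4.7585) and Tmem223 (4.00066 and 5.605), and the closest one outside it was the peak shared by Ndufaf3, Dalrd3, Mir191 and Mir425 (4.836 and 3.99982).

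The peaks were wide, with a median of 2392 bp and a range of 356 to 12225 bp, and lay over the start and into the gene. Of the 2687 peaks with a single gene start within 1 kb, 2556 (95.1%) covered that start, and 2144 (79.8%) were centred downstream of it, at a median of 333.5 bp. Their median reach was 785 bp upstream and 1395 bp downstream. Width and fold were nearly unrelated (Spearman 0.06 over the peaks). The widest peak, of 12225 bp on chromosome 11 (70459055 to 70471279), covers the starts of Eno3, Pfn1, Rnf167 and Slc25a11, with folds of only 5.06 and 5.45. Next were Plekhg2 and Zfp36 (11991 bp), Spsb2 and Tpi1 (11511 bp), Setd1b and Rhof (11303 bp), and Tgif1 (10735 bp), all with folds between 4.01 and 6.18.

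774 peaks had 2 gene starts within 1 kb and 50 had 3 or more. Accordingly 1118 of the 4409 genes (25.4%) belong to a divergent pair, in which neighbouring genes start back to back, against 5.43% of the other genes, and 52.7% of the 2121 genes in such pairs have a shared strong peak. Pairs are starts up to 1 kb apart, and a member gene starts within 1 kb of a peak. A peak at a pair thus tends to make both genes members, which raises these shares. The Atp5f1 and Wdr77 peak is of this kind. By gene type, 4051 of 19665 protein-coding genes (20.6%) have a peak, 277 of 2808 noncoding RNA genes (9.86%), 25 of 294 pseudogenes (8.5%) and 54 of 110 snoRNA genes (49.1%), small guide RNAs of ribosomal RNA modification that mostly lie in introns of other genes. 6 of the 4409 genes have more than 1 copy in the authors' table, where reads could be split between copies.

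Almost all of these promoters already had a listed H3K9ac peak before differentiation, at a lower fold. 3426 of the 3511 (97.58%) overlapped a peak of the WT day 0 list, with a median fold of 3.26, and 3377 (96.18%) a peak of the KO day 0 list, with a median of 3.54. A fold of at least 4 was reached by 543 (15.47%) in WT at day 0, by 1014 (28.88%) in KO and by 337 (9.6%) in both. The day 0 lists hold few strong peaks anywhere, 2.33% of the WT list and 5.84% of the KO list against 14.7% and 10.1% at day 10, so folds of different days are not on a common scale. By rank within the day 0 lists the median member stood at percentile 92.7 of the WT list and 89.9 of the KO list, and 2083 (59.3%) and 1671 (47.6%) were in the top 10% of them. Of the 3305 peaks listed in both lines at day 0, 2148 (65.0%) had the higher fold in KO, with a median ratio of 1.08. The median fold over all peaks was also higher in the KO day 0 list, 2.57 against 2.44 in WT. At day 10 the numbers were nearly even (1760 of 3511 higher in KO). The rule needs 4 in both day 10 lists and so favours even numbers at day 10, and the days cannot be compared in this. The Spearman correlation of day 10 with day 0 folds over the peaks was 0.40 in WT and 0.35 in KO.

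**Figure D2:**
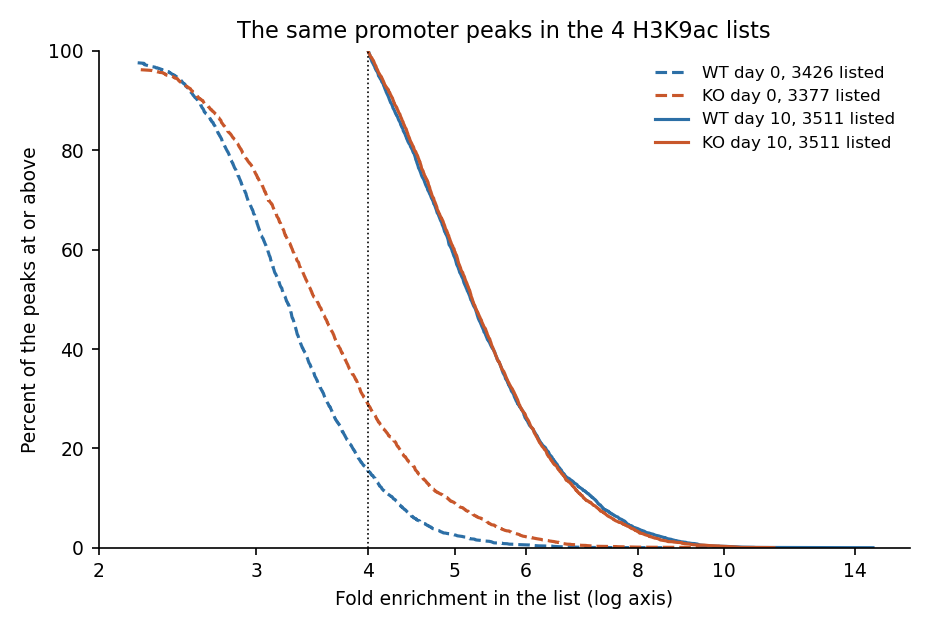
Percent of the 3511 peaks (y axis) whose fold enrichment in a list is at or above the value on the x axis (log scale), for WT (blue) and KO (orange) at day 0 (dashed) and day 10 (solid). The dotted line marks the threshold of 4 that chose the peaks at day 10; at day 0 15.47% of them reach it in WT and 28.88% in KO.

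The day 0 profile can be set beside that of other day 10 peaks. Of the 375 shared strong peaks away from gene starts, which are narrower (median 927 bp against 2392 bp), 54.1% were strong in both lines at day 0, with median folds of 4.98 in WT and 5.62 in KO. Of the 1005 promoter peaks strong in WT alone 0.597% were strong in both lines at day 0, and of the 950 strong in KO alone 0.632%. Of all 35882 peaks of the WT day 10 list 57.1% had no listed day 0 peak in either line, against 13 of the 3511 (0.37%). The other strong peaks were close to the members in this. The share was 1.33% for the shared strong peaks away from gene starts. It was 4.48% for promoter peaks strong in WT alone and 4.74% for those strong in KO alone. These differences rest on 1 ChIP sample per group and were not tested.

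13 promoters had a strong shared peak at day 10 and no listed peak at day 0 in either line. In order of the lower day 10 fold, the 10 strongest were those of Klhl9, Inpp5f, Krt8, Rad54l2, Trio, Grhl2, Inpp5a, Fam98c, Akap9 and Tmbim1, with folds of 4.10 to 5.42 in WT and 4.14 to 5.08 in KO; the other 3, Ptprn, Ttyh3 and Frs2, are outside the rule for named peaks and are named because the count is small. Krt8, a keratin of simple epithelia (chromosome 15, 101827142 to 101834773; peak of 4570 bp with folds of 4.52 and 5.08), had 45.98, 50.1 and 46.39 scaled reads in the WT day 0 libraries and 4354, 3239 and 1589 at day 10. In KO it had 15.57, 19.86 and 16.07 at day 0 and 2400, 3642 and 3484 at day 10. The days did not overlap in either line, and Krt8 rose by a log2 change of 5.86 (SE 0.36, limma adjusted p = 2.42e-06) in WT and 7.43 (SE 0.36, adjusted p = 1.05e-07) in KO. Ttyh3, a membrane protein of the tweety family, had 240.5, 200.4 and 265.6 scaled reads at day 0 and 654.6, 679.5 and 776.1 at day 10 in WT. In KO it had 121.4, 140.0 and 145.9, then 567.3, 796.8 and 906.1. Ttyh3 rose by 1.58 in WT (SE 0.28, limma adjusted p = 0.00471) and by 2.45 in KO (SE 0.28, adjusted p = 0.000299). Grhl2, a transcription factor of epithelia, rose by 1.53 in WT (SE 0.3, limma adjusted p = 0.00979) and was at 0.85 in KO (adjusted p = 0.0824). Trio, a guanine nucleotide exchange factor, rose by 1.28 in WT (SE 0.3, limma adjusted p = 0.025) and was at 0.82 in KO (adjusted p = 0.0878). Whether these changes differ between the lines was not tested. In fits that left out 1 library, Trio passed in 3 of 6 (limma adjusted p of up to 0.11, without WT day 0 replicate 3 or WT day 10 replicate 1 or 2 it did not pass), while Krt8, Ttyh3 and Grhl2 passed in all 6 in WT. The other 9 genes did not pass in either line, Inpp5f among them (0.38 and -0.29).

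Genes at these starts were among those with the most RNA. RNA is compared between genes as scaled reads per kb of gene, over the genomic span and so with introns. The median member gene had 20.5 ± 2.19 (SD, n = 3) in WT and 20.9 ± 0.99 in KO at day 10, against 11.9 ± 0.81 and 11.6 ± 0.87 for genes with a strong peak in 1 line only. The values were 6.98 ± 0.41 and 6.09 ± 0.41 for genes with weaker peaks in both. Genes with a peak in 1 list had 1.45 ± 0.94 and 0.79 ± 0.02, and those with no listed peak 0.52 ± 0.90 and 0. These WT values rest on replicate 3, one of the libraries with receptor gene reads, at 2.53 and 1.56 against 0.89 and 0.93, and 0 and 0, in the other 2. The order of the first 3 classes was the same in all 12 libraries, including those of day 0 (20.2 to 30.8 for the member genes in WT and 16.8 to 30.7 in KO). 4163 of the 4409 genes (94.4%) were above the median of all genes at day 10, and 57.7% of the 2289 genes in the top 10% were members. Member genes took 50.4% to 52.3% of all reads outside Rn45s in 5 of the day 10 libraries and 40.6% in WT day 10 replicate 3. The rule used no RNA value, but acetylation and RNA come from the same cultures and these are levels, with no test.

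**Figure D3:**
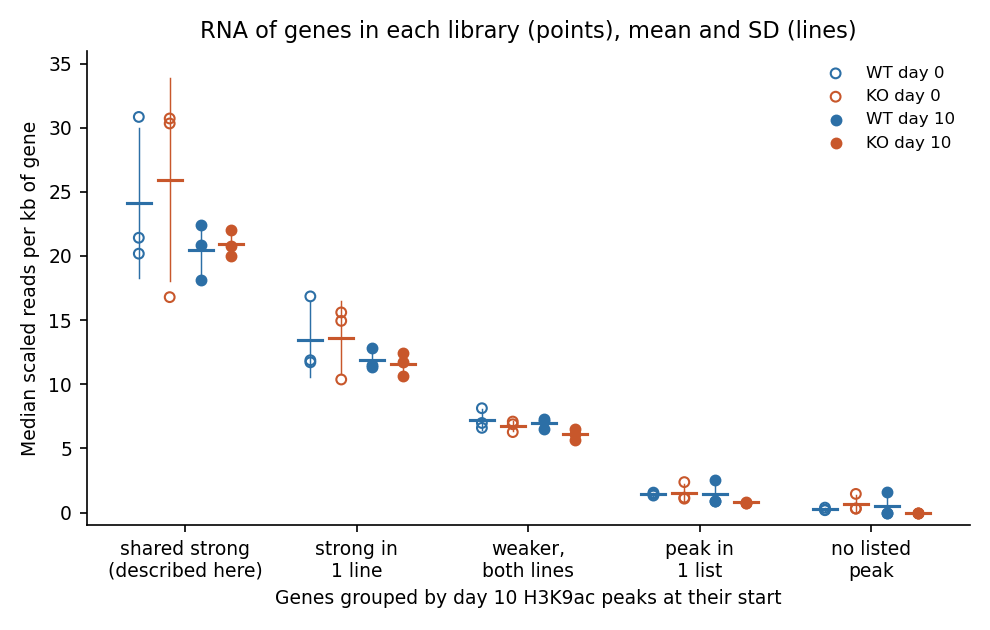
Median RNA of genes, in scaled reads per kb of gene (y axis), for 5 classes of genes by the day 10 H3K9ac peaks at their start (x axis); each point is 1 library, open at day 0 and filled at day 10, blue for WT and orange for KO, with the mean and SD of 3 libraries as lines. The leftmost class, the 4409 genes with shared strong peaks, lies above the other classes in each library, and its 3 highest points are the 3 deep day 0 libraries.

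Within the members RNA followed fold and width only loosely. Over the 4051 protein-coding genes the Spearman correlation of RNA per kb with the lower fold was 0.19 and with peak width 0.26. Genes share libraries and are not independent points. In 5 equal groups by the lower fold the median RNA went from 16.8 in the weakest to 29.0 in the strongest, and by width from 16.3 in the narrowest to 35.7 in the widest. The highest RNA per kb was that of Rpph1, the RNA of ribonuclease P (71320), followed by the beta actin gene Actb (7592), the linker histone gene Hist1h1c (4919), Mir5136 (4135) and the imprinted gene Peg10 (4011). At the other end 28 genes had no read in any day 10 library, microRNA genes such as Mir423, Mir150 and Mir219a-1 among them. These short genes lie beside or inside others. The strand of counting is not given in the sources used here, so a reading of a short gene cannot be told apart from that of its neighbour.

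Gene lists fixed by function show which kinds of gene carry these peaks, beside 19.3% of all genes. Of 80 cytosolic ribosomal protein genes 74 (92.5%) do, the highest share of the 23 lists, led by Rpl13, Rps15 (10.8 in WT, 8.66 in KO), Rpl28 (8.32 and 8.13) and Rpl19 (9.59 and 7.95). Splicing and other RNA-binding factors follow with 44 of 53 (83.0%), among them Hnrnpul1 and the pair Hnrnpa2b1 and Cbx3, which share a peak (7.94 and 8.96), and Srsf4 (7.43 and 7.59). Cyclins and replication genes had 18 of 25 (72.0%), with Mcm2 (7.75 and 7.39), Ccnb1 (7.89 and 7.34), Cdk4 (7.63 and 7.26) and Mcm5 (7.22 and 8.81), proteasome subunits 29 of 42 (69.0%) and translation factors 40 of 60 (66.7%). Lower shares were found for stress and heat shock genes (10 of 17), respiratory chain and ATP synthase genes (47 of 84), snoRNAs and their hosts (63 of 114), mitochondrial ribosomal proteins (41 of 77), with 30 of the remaining 36 strong in 1 line, and cytoskeletal genes (11 of 21). Of the histone genes only 12 of 82 (14.6%) had such a peak, and 40 of them had weaker peaks in both lines. The median RNA of the 82 was 405 scaled reads per kb. The span that divides it includes introns and differs widely, with 724 bp for Hist1h1c and a median of 19359 bp over member genes. The 405 is therefore not on a like scale with the levels of longer genes.

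**Figure D4:**
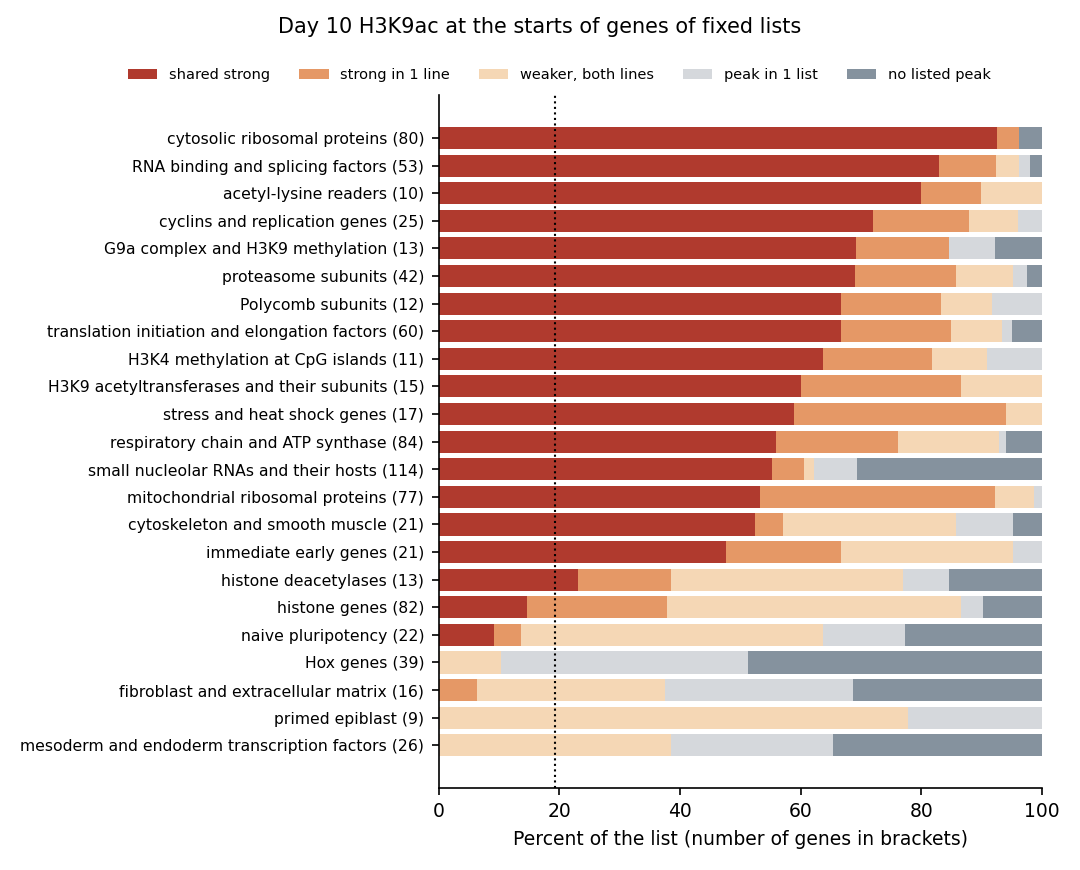
Share of the genes of each fixed list (rows, with the number of genes in brackets) by the day 10 H3K9ac peak at their start: shared strong (dark red), strong in 1 line, weaker in both lines, listed in 1 line, or none. The dotted line is the share of all genes with a shared strong peak (19.3%); the cytosolic ribosomal proteins reach 92.5% and 4 lists of developmental or lineage genes have none.

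Genes of histone acetylation and methylation were members to different degrees. Of 15 histone acetyltransferases and subunits 9 had such a peak. Ep300 (7.35 in WT, 9.16 in KO), Tada3 (7.53 and 6.81) and Kat7 (5.6 and 5.99) were in front. The list is not limited to writers of H3K9ac. The genes of GCN5 and PCAF, Kat2a (3.07 and 3.25) and Kat2b (2.74 and 3.01), had weaker peaks. Of 10 acetyl-lysine readers 8 had one, including Brd2 (5.86 and 6.72) and Yeats4 (6.27 and 5.05). Of 13 deacetylases and their corepressors 3 did (Mta2, Sin3a and Rcor1); Hdac1 (5.96 and 3.55) and Hdac2 (3.9 and 5.03) were each strong in 1 line. Of 13 genes of the G9a complex and H3K9 methylation, demethylases among them, 9 did, with Ehmt1, the partner of G9a, at 6.21 and 5.70. Ehmt2 itself was below the threshold in WT (3.27) and above it in KO (4.29), so its promoter is not a member, although it is the deleted gene. Polycomb subunits (8 of 12), led by Eed (6.67 and 7.22), were also mostly members. So were genes of H3K4 methylation at CpG islands (7 of 11), led by the demethylase Kdm5a (7.27 and 6.28).

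Genes of cell identity were rarely among them. Of 22 naive pluripotency genes 2 had a shared strong peak, Klf2 (4.53 in WT, 4.2 in KO) and Sall4 (4.02 and 4.28), while 11 had weaker peaks in both lines, with Pou5f1 at 3.42 and 3.13, Sox2 at 3.19 and 2.61 and Nanog at 2.95 and 2.83. None of 9 primed epiblast genes, 26 mesoderm and endoderm transcription factors, 39 Hox genes or 16 fibroblast and matrix genes had one, although several were well transcribed at day 10, with 213 scaled reads per kb for Hand1 and 206 for Fn1. 7 of the 9 primed epiblast genes and 10 of the 26 lineage factors had weaker peaks in both lines. Immediate early genes lay between, with 10 of 21 members, led by Jun (6.31 and 7.62), Jund (6.27 and 6.99), Klf6 (5.85 and 5.90) and Zfp36 (5.89 and 5.54). Fos, Fosb, Fosl2 and Ier5 were above 4 in KO alone, Fos with 3.78 in WT and 5.4 in KO.

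Between KO and WT at day 10 no gene with a shared strong peak passed in RNA. Of 20624 genes tested 4376 were members, and limma called 0 of them higher and 0 lower, as it did over all genes (0.0% and 0.0%); edgeR on recovered reads also called 0 of either, and DESeq2 called 30 of 4399 members and 558 of all 22772 genes. At an unadjusted p under 0.05, 83 members (1.9%) were higher and 110 (2.51%) lower in KO, against 2.06% and 9.88% of all genes tested. The median log2 difference was 0.05 over the members and -0.26 over all genes. Without WT day 10 replicate 3, the library with receptor gene reads, the medians were -0.03 and -0.08. That fit left 35 members higher and 83 lower at that p, beside 1451 of all 20290 genes in either direction. Without KO day 10 replicate 2 the numbers were 32 and 75, beside 1570 of all 20590. Without KO day 10 replicate 3 they were 47 and 68, beside 1588 of all 20571. RLE scaling (a common factor per library from the median gene) moved the medians to 0.13 and -0.18. It moved the members at that p to 193 higher and 93 lower, beside 2454 of all 20586. The stem cell marker sum of the KO libraries, 1697 to 2354 CPM, lay above that of WT, 488.5 to 1240, at the same time; its part in any gene's difference was not tested.

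The 10 members with the smallest p give the scale of what these 3 against 3 libraries show. They were picked by p out of 4376 members, so groups that do not overlap come with that choice and add no support. At day 10 Trp53, the p53 gene (chromosome 11, 69393861 to 69405375), had 1164, 1211 and 1397 scaled reads in the WT libraries and 2340, 2612 and 2384 in those of KO. The groups did not overlap, with a log2 difference of 0.96 (SE 0.26, limma adjusted p = 0.21). Neat1, the noncoding RNA of paraspeckles (chromosome 19, 5842302 to 5845478), had 1013, 836.0 and 528.9 in WT and 384.8, 339.5 and 320.9 in KO, a log2 difference of -1.14 (SE 0.3, limma adjusted p = 0.21). Klf2, also a stem cell marker, had 555.8, 343.9 and 80.48 in WT and 1357, 933.7 and 765.9 in KO (log2 difference 1.99, SE 0.55, limma adjusted p = 0.21). Ubtf, a factor of RNA polymerase I (1.25), and Bop1, a ribosome assembly factor (1.19), were higher in all 3 KO libraries, and Zc3h6 (-2.27), Dnajb4 (-1.24), Primpol (-1.04), Polh (-1.0) and Pawr (-0.97) lower, each with groups that did not overlap and limma adjusted p from 0.21 to 0.227. DESeq2 took 6 of the 10 past the threshold (Neat1, Trp53, Ubtf, Primpol, Bop1 and Dnajb4).

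From day 0 to day 10 in WT 66 members rose (1.51%) and 35 fell (0.8%), against 2.02% and 2.4% of all genes tested. With RLE scaling the numbers were 121 and 29, beside 995 of all 20586 genes called (592 of them higher). Without WT day 0 replicate 3, the deep library with little Rn45s, they were 44 and 9, beside 466 of all 20507 genes (270 higher). Without WT day 10 replicate 1 they were 40 and 19, beside 623 of 20568 (305 higher), and without WT day 10 replicate 2 they were 36 and 14, beside 466 of 20547 (223 higher). In the highest of 4 equal groups of genes by mean level 2.9% of the members and 11.5% of the other genes were called. Krt8 rose most. Arl4c, a small GTPase, had 38.9, 75.15 and 93.93 scaled reads at day 0 and 1840, 1091 and 692.7 at day 10 (log2 change 4.08, SE 0.46, limma adjusted p = 0.000211). Irs2, an adaptor of the insulin receptor, had 159.2, 187.9 and 173.3 and then 2866, 2242 and 1581 (3.64, SE 0.31, limma adjusted p = 3.64e-05). Tpm1, a tropomyosin, had 1019, 956.1 and 1055 and then 10162, 9492 and 6904 (3.11, SE 0.31, limma adjusted p = 9.23e-05), and Jun, the AP-1 factor, 63.66, 154.5 and 97.91 and then 2510, 1447 and 184.0 (3.13, SE 0.75, limma adjusted p = 0.0283). The days did not overlap for any of the 4. These genes were picked as the largest called rises, so this comes with that choice and adds no support. The Jun value of the last library was far below the other 2. Jun lost its call in 5 of 6 fits that left out 1 library.

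The 5 largest falls in WT were those of Pigp (-2.52), D7Ertd143e (-2.17), Pigl (-2.13), Kat6b (-1.83) and Acp6 (-1.75), with limma adjusted p from 0.00184 to 0.0141. Pigp and Pigl, which both act in making the GPI anchor of surface proteins, had 714.4, 1528 and 1513, and 965.6, 484.3 and 856.5 scaled reads at day 0, and 290.3, 278.0 and 106.4, and 126.6, 170.9 and 215.6 at day 10. Kat6b, a histone acetyltransferase, had 10278, 2852 and 3753 at day 0 and 1207, 1404 and 1429 at day 10, and lost its call in 2 of 6 fits that left out 1 library (without WT day 10 replicate 1 or 2). Acp6 lost its call without WT day 0 replicate 3 (limma adjusted p = 0.052).

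In KO 96 members rose (2.19%) and 82 fell (1.87%), against 2.43% and 6.46% of all genes tested. This count rests on single libraries. Without KO day 0 replicate 1, with receptor gene reads, 136 rose and 693 fell, beside 2889 of all 20341 genes called (737 of them higher). Without KO day 10 replicate 3, 16 rose and 1 fell, beside 199 of all 20571 genes (113 higher). Leaving out KO day 0 replicate 2 or 3, KO day 10 replicate 1 or 2 gave 29 and 1, 28 and 1, 39 and 15, and 22 and 5, where 304, 285, 502 and 298 of all genes were called. Without KO day 0 replicates 2 and 3, both with little Rn45s, 26 rose and 0 fell, beside 130 of all 19826 genes called (113 higher), with KO day 0 replicate 1 as the lone day 0 library assumed to vary like the others, and the median change of the members moved from -0.27 to 0.25. RLE scaling gave 195 and 29, beside 1485 of all 20586 genes (785 higher), and moved the median of all genes from -0.68 to -0.41, and in WT from -0.20 to -0.01. The falls in KO and the change of library type between the days cannot be told apart. Krt8, Arl4c (4.29), Tpm1 (2.99), Irs2 (2.63) and Peg10 (2.65) passed in all 16 alternatives.

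**Figure D5:**
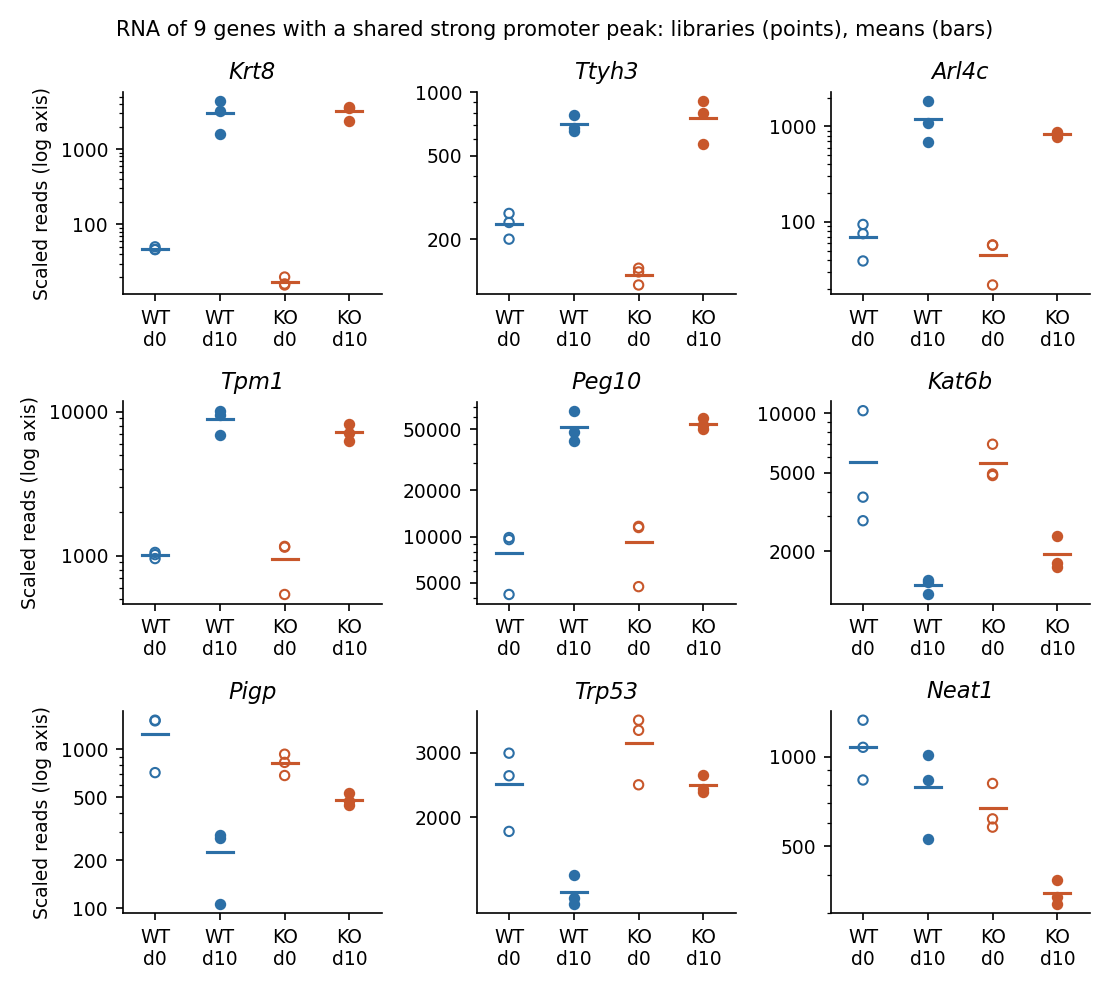
RNA of 9 genes with a shared strong promoter peak, in scaled reads (y axes, log scale), for WT (blue) and KO (orange) at day 0 (open) and day 10 (filled); each point is 1 library and each bar the mean of 3. Krt8, Ttyh3, Arl4c, Tpm1 and Peg10 are higher at day 10 in every library, Kat6b and Pigp lower. Trp53 and Neat1, picked by small p and not called by limma, separate WT from KO at day 10.

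Arl4c had 21.79, 57.31 and 56.86 scaled reads in KO at day 0 and 852.9, 865.2 and 782.0 at day 10 (limma adjusted p = 0.000202). Tpm1 had 538.6, 1161 and 1148 and then 6276, 8181 and 7071 (limma adjusted p = 0.000149). Peg10, an imprinted gene of retrotransposon origin, had 4732, 11663 and 11464 in KO and then 50212, 53017 and 58988, and in WT 4209, 9570 and 9869 and then 65918, 48137 and 41605 (2.79 in WT, limma adjusted p = 0.00105). All 3 were far higher at day 10 in every library of both lines. Arl4c and Tpm1 were picked as the largest called rises, so for them this adds no support. Jun (3.26) and Kdm6b, an H3K27 demethylase (3.13), also passed in KO, each in 1 of 6 fits that left out 1 library, but the 1 day 0 library with much Rn45s held 663.2 reads of Kdm6b against 120.5 and 96.42 in the other 2. The 5 largest falls were those of Dancr (-2.78), Ndufb4 (-2.69), Fam72a (-2.60), Zfp51 (-2.60) and Zfp958 (-2.42). For Zfp51 the 3 day 0 libraries held 105.9, 350.7 and 354.0 reads and the day 10 libraries 51.57, 32.86 and 32.36. Its limma adjusted p was 0.0379, and 0.264 in the fit without the libraries with little Rn45s. In that fit none of the other 4 passed (limma adjusted p of 0.133 to 0.435).

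By day 0 state of the promoter, the 13 genes with no day 0 peak had a median log2 change of 0.74 in WT and 0.48 in KO, with 10 of 13 values above 0 in each line. The 212 tested genes with a day 0 peak in 1 line had 0.13 and 0.06, with 15 up and 1 down in WT and 21 up and 3 down in KO. The 3715 genes listed in both lines had -0.24 and -0.29, with 45 up and 29 down in WT and 69 up and 69 down in KO, and the 436 strong in both had -0.30 and -0.36, with 2 up and 5 down and 4 up and 10 down. The medians of all genes were -0.20 and -0.68. Of all 20624 genes tested 417 (2.02%) were called up and 494 (2.4%) down in WT, and 502 (2.43%) and 1332 (6.46%) in KO. The differences between these classes were not tested.

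Among the fixed lists the members in immediate early and cytoskeletal genes stood highest at day 10. The 10 immediate early members had a median log2 change of 1.09 in WT and 1.15 in KO, with Jun and Klf6 (2.03, limma adjusted p = 0.0434) up in WT, and Jun and Junb (2.24, limma adjusted p = 0.0394) up in KO. The 11 cytoskeletal members had 0.37 and 0.74, with Tpm1 up in WT and Tpm1, Actb (1.09) and Actg1 (1.02) up in KO. The summed level of 5 smooth muscle markers went with this, from 27.2 to 85.5 CPM over the day 0 libraries to 146.7 to 350.2 in WT and 308.5 to 895.9 in KO at day 10. None of the 5 has a shared strong peak or is at 0 in any library, and their part in the result was not tested. The medians of both lists stayed above 0 under every setting tried. The 60 tested snoRNAs and hosts had -0.98 and -1.03, below 0 under every setting. The 63 members of this list lie at 40 peaks, so some of them share a peak. Without the libraries with little Rn45s, which left 1 day 0 library, their KO median was -0.34 and that of all genes -0.44. A fall beyond that of all genes in KO thus depends on the libraries used. Snhg1 (-1.16), Snhg7 (-1.28), Snhg12 (-1.53) and Snord33 (-1.70) were down in WT and Snhg6 (-1.62) in KO. In WT the 47 respiratory chain members had a median of -0.78 and the 74 cytosolic ribosomal proteins -0.64. The 41 mitochondrial ones had -0.64 and the 40 translation factors -0.56. In this order 1, 1, 1 and 0 were called lower and 0 higher. Without both libraries with receptor gene reads they had -0.59, -0.47, -0.44 and -0.19, beside -0.41 for all genes (-0.20 in the main fit). Then 15, 33, 19 and 27 of them were above the median of all genes, against 4, 8, 7 and 10 in the main fit. Their fall relative to all genes in WT thus also depends on the libraries used. In KO the same lists had -0.50, -0.44, -0.45 and -0.22, and 0.12, 0.14, 0.22 and 0.37 in the fit without the libraries with little Rn45s, so the sign there depends on the libraries used. Klf6, Junb, Actb, Actg1 and the 5 snoRNA genes each lost their call in at least 4 of 6 fits that left out 1 library.

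Of 12 histone members Hist4h4 rose in both lines (1.63 in WT, limma adjusted p = 0.00538; 1.66 in KO, limma adjusted p = 0.00674, and 0.113 in the fit without the libraries with little Rn45s) and Hist1h1c passed in KO (1.39, limma adjusted p = 0.0314). Of the 9 members in the acetyltransferase list Kat6b fell in both lines (-1.83 and -1.52) and Wdr5 in WT (-1.24, limma adjusted p = 0.027). Kat6b in KO was at -1.87 in the fit without the libraries with little Rn45s, which left 1 day 0 library. Of the 7 H3K4 methylation members Kmt2a rose in KO (1.37, limma adjusted p = 0.0457), and of the 10 stress gene members Ddit4 rose in KO (2.14, limma adjusted p = 0.018). Kat6b in KO, Wdr5, Hist1h1c, Kmt2a and Ddit4 each passed in 1 of 6 fits that left out 1 library. No member among the acetyl-lysine readers, deacetylases, translation factors, splicing factors or the G9a complex was called in either line. These lists held 8, 3, 40, 44 and 9 tested members. Over all members 1.51% rose and 0.8% fell in WT, and 2.19% and 1.87% in KO. Over all genes tested the shares were 2.02% and 2.4%, and 2.43% and 6.46%. Lists this small would hold few calls at the members' shares, so the lack of calls does not mark them as stable.

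Across chromosomes the share of genes with a shared strong peak ran from 15.7% on chromosome 7 to 28.4% on chromosome 8, where 257 peaks serve 325 of 1144 genes. Chromosome 8 also had the highest median folds, 5.59 in WT and 5.55 in KO, against 4.98 to 5.36 and 4.95 to 5.45 on the others. The authors' allele table counts reads of the mus and the cas allele of each gene, without naming the strains further. On chromosome 8 the mus allele gave 66.7% to 68.5% of the allelic reads of the member genes over the 6 day 10 libraries, against 50.5% to 51.8% on chromosome 13 and 52.6% to 55.1% on chromosome 9. Other chromosomes were also in between, chromosomes 5 and 7 at 59.4% to 61.1% and chromosomes 2, 6 and 11 at 75.5% to 82.0%. On chromosomes 1, 3, 4, 10, 12 and 14 to 19 the share was 92.2% to 97.9%. Whether the share of peaks and the allelic share on chromosome 8 are related was not tested.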

How the data were processed

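H3K9ac ChIP (1 sample per line and day) and total RNA (3 libraries per line and day) were used; H3K9me2 and input samples were not, and 2 inputs, whose labels name different days, were put in no group. The submitters' processing notes name TopHat, HOMER, Novoalign, MACS2 and the build mm9, without saying which was used for what; versions, the ChIP control and the strand of counting are not given in the sources used here. The authors' peak lists, 1 per sample and in the broad peak format that MACS2 writes, give a fold enrichment and −log10 p and q per peak, as deposited, and hold peaks with p under 0.01. The authors' deposited gene table holds scaled reads per gene (a signal at a common total per library), with log2 changes and p-values of the authors' own comparisons, which were not used. The deposited allele table holds counts of mus and cas reads per gene. All scaled values (100.0%) were whole multiples of 1 read within 0.006, so whole reads were recovered for edgeR and DESeq2; intervals and depths cover counting error only.

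The plan assumed counts; as the table is scaled, limma (3.58.1, trend and robust, all 12 libraries) was fitted to log2(scaled reads + 1) of genes above 1 in at least 3 libraries, with Benjamini-Hochberg adjustment over all genes tested and calls at 0.05. A log2 change on this scale understates low genes. Gene length is the genomic span. Alternatives used edgeR 4.0.16 and DESeq2 1.42.0 (R 4.3.3), other pseudocounts, filters, scalings, samples and peak rules; Python 3.11.15, pandas 2.3.3, numpy 2.4.6, scipy 1.17.1 and matplotlib 3.10.9 did the rest. The fits were tested on simulated data. Named peaks are the 10 strongest by the lower fold, 5 at each end of the KO to WT ratio, 5 widest, 3 on each side of the threshold and up to 10 with no day 0 peak; named genes are the 5 largest called changes each way per comparison with a mean log2 value above 5, or the 10 smallest p where none was called, the 5 highest and lowest in RNA per kb, leaving out symbols that start with Gm or end with Rik, up to 4 members of each list by the lower fold, Ehmt1 and Ehmt2. Other genes named, Ttyh3 and further list genes among them, were chosen after their values were seen. The members and lists were chosen with earlier results of these data known. Some items are not reported here.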

Additional observations from a re-analysis of the deposited data

How the results depend on the processing

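With 1 ChIP sample per group the peak results have no replicate check, and the depth of 9 of the 12 RNA libraries (2081129 to 4220140 reads) limits what can be seen in low genes. The number of peaks, 3511, was 6613 at a fold of 3 and 1511 at 5. The share strong at day 0 in both lines, 9.6%, was 94.1% counting any listed peak, 7.06% with a day 0 overlap of at least 50% of the peak and 18.3% for members at a fold of 5, whose median RNA was 24.2 scaled reads per kb against 20.7. Members called between KO and WT at day 10, 0 by limma, were 0 in each fit that left out 1 library. They were 2 with a pseudocount of 0.1 (111 of all 20624 genes) and 30 by DESeq2 (558 of all 22772). Members called between days in WT were 101, beside 911 of all genes called. With only the compared groups in the fit they were 40 (372 of all 19292 genes), and by DESeq2 321 (1823 of all 22772). At a fold of 5 they were 38, and with 1 library left out 50 to 113 (466 to 1051 of all genes). In KO they were 178, beside 1834 of all genes. In the same order they became 350 (4165 of all 19374), 521 (3351 of all 22772), 58, and 17 to 829 (199 to 2889). With a pseudocount of 5 they were 110 (1054 of all genes). Chosen after seeing the data, leaving out both libraries with receptor gene reads gave 245 in WT and 1223 in KO, and leaving out the day 0 libraries with little Rn45s gave 78 and 26. The first of these fits called 2141 of all 19942 genes in WT and 5409 in KO, so its high counts are not particular to the members. The second called 566 of all 19826 genes in WT, and in KO it left 1 day 0 library. With a replicate block the members called were 0 between KO and WT, 103 between days in WT and 177 in KO. Of all 20624 genes 0, 850 and 1612 were called. Same-numbered libraries had correlations of their deviations from -0.4 to 0.106. The libraries of a group also differ in depth, Rn45s share and receptor gene reads. These values therefore cannot show whether same-numbered libraries share a culture or batch. Of the values of single genes under these alternatives, 154 kept their side of the threshold and 6 gained a call between KO and WT, 304 kept and 80 lost it between days in WT, and 265 kept and 119 lost it in KO; no direction reversed. The cause of these changes was not tested.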
